A study of Mus musculus with 6 samples.

Results

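Transcript levels are described for 10 genes that encode the core of the tumour necrosis factor (TNF) receptor signalling complex, out of 54532 genes in the deposited count table. They were taken by symbol: Rbck1, Rnf31 and Sharpin of the linear ubiquitin chain assembly complex (LUBAC), the ubiquitin ligase genes Birc2 and Birc3 with their adaptor Traf2, the kinase gene Ripk1, and Map3k7, Tab1 and Tab2 of the TAK1 kinase complex. All 10 were found once and all 10 passed the filter on low counts. The RNA came from TM3, a mouse testis line established from Leydig cells, the cells that make testosterone. The 3 control libraries carry the genotype label WT and are titled as overexpression controls, and the 3 others are labelled A20 overexpression. All were grown in the same medium with foetal bovine and horse serum. The labels do not state the vector, the species of the A20 sequence, whether the controls carried an empty vector, whether the cells were 1 clone or a pool, or whether replicates were separate cultures, so the p-values below measure the spread between these libraries, which may be technical.

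When TNF binds its receptor TNFR1, the adaptor TRADD, the kinase RIPK1, the adaptor TRAF2 and the ligases cIAP1 and cIAP2 assemble on the receptor tail. The cIAPs attach ubiquitin chains to RIPK1 and other components, and LUBAC is drawn to these and adds linear chains. TAB2 binds the ubiquitin and brings in the kinase TAK1, the linear chains bring in the IKK complex, and both lead to NF-kB and MAP kinase activity. Where the ubiquitin is missing, RIPK1 can instead start cell death. A20, the product of Tnfaip3, binds and edits ubiquitin in this complex and restrains its output. The comparison of A20 overexpression with control asks here whether the RNA of the components themselves differed.

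Total counts were 13841287 to 16917979 per library, so that 3 counts, the limit that a count of 0 allows, equal 0.177 to 0.217 CPM, where CPM is a gene's count scaled to the library's total. These limits cover counting error only. Tnfaip3, the targeted gene, stood at 30.9, 11.9 and 15.2 CPM in control replicates 1, 2 and 3 and at 41.0, 33.7 and 43.6 CPM in A20 replicates 1, 2 and 3, higher in each A20 library. Control replicate 1 stood apart. Its 7 Leydig cell markers, among them the steroid enzyme gene Cyp11a1, summed to 2039 CPM, against 3.97 to 7.86 CPM in the other 5 libraries, where 3 of the 7 (Hsd3b1, Cyp17a1, Lhcgr) had no count. The defining steroid genes of the labelled cell type were thus near or at 0 in 5 of 6 libraries. The fold changes and tests of the members are therefore given with all 6 libraries and with the 5 that leave control replicate 1 out, and levels in FPKM are given over the 6. Of other testis cell types, the Sertoli genes Sox9 and Fshr, the germ cell gene Dazl and the macrophage gene Adgre1 had no count in any library. The 4 Sertoli markers, nearly all Clu, summed to 221 CPM in control replicate 1, 22.9 to 31.3 CPM in the other controls and 9.16 to 13.4 CPM with A20. The 3 macrophage markers, mostly Cd68, summed to 4.23 CPM in control replicate 1 and 19.3 to 38.8 CPM in the others. The 3 endothelial markers summed to 36.7 CPM and 3.05 to 4.85 CPM, and the 3 germ cell markers to 9.38 CPM and 6.06 to 12.2 CPM. The endothelial sum in control replicate 1 was mostly Cdh5, at 35.1 CPM. Egfl7 went the other way, at 1.04 CPM there and 3.05 to 4.47 CPM in the others. The part of these markers in the results below was not tested, and in bulk RNA fewer cells of a type and less RNA per cell cannot be told apart.

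Among the members, Rbck1 was higher and Birc2 lower in A20-overexpressing cells, and both passed edgeR's test in the fit without control replicate 1 and not in that of all 6 libraries. The sequences before the start sites of these genes, and of Birc3, the paralog next to Birc2, are shown to let the 3 be compared. Each run is the 250 bases upstream of the RefSeq start nearest to the gene's start in the count table (RefSeq, build GRCm38.p6, minus strand, 5′ to 3′), and the capitals mark CpG dinucleotides.
Rbck1, chr2:152332640-152332889: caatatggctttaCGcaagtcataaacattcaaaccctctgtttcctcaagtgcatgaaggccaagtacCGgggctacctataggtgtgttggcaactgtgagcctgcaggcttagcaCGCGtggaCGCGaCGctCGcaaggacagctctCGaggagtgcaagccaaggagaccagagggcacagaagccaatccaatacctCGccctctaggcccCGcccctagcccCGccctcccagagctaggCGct
Birc2, chr9:7837058-7837307: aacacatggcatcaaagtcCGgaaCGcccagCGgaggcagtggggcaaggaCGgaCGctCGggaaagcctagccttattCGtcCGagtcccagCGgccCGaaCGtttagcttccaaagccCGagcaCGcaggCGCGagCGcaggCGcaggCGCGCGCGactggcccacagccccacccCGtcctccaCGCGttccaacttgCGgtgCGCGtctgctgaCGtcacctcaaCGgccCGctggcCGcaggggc
Birc3, chr9:7873171-7873420: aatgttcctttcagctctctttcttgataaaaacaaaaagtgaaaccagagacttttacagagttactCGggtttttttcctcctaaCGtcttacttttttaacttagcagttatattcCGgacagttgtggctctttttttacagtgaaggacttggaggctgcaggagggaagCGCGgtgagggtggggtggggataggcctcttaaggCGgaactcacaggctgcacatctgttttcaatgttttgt
The Birc2 window held 31 CpG dinucleotides, the Rbck1 window 13 and the Birc3 window 6. Over all 32851 promoter windows of the table the median was 6, with quartiles of 2 and 16, so Birc2 lay above the upper quartile and Birc3 at the median. Promoters of 8 of the 10 members were in the table, in 12 windows. The NF-kB binding consensus, searched by that name on both strands over the full 300 bases of each window, which run to 50 bases past the start, was found in 1 of the 12, that of Map3k7 (GGGAATTTCC), and in 8.46% of all windows. None of the Rbck1, Birc2 and Birc3 windows held it, which says only that these letters are not in those windows.

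Rbck1 encodes HOIL-1, a LUBAC subunit that is itself a ubiquitin ligase. The gene (ENSMUSG00000027466) lies on GRCm38 chromosome 2 from 152316334 to 152332653 on the minus strand. It stood at 110.1, 84.5 and 104 CPM in control replicates 1, 2 and 3 and at 156, 156 and 164 CPM with A20. All 3 A20 libraries were above all 3 controls, and control replicate 1 lay within the range of the other libraries. Control libraries averaged 99.5 CPM ± 13.4 (SD, n = 3) and A20 libraries 158 CPM ± 4.59 (SD, n = 3). Log2 fold changes here are A20 over control, tested with the quasi-likelihood F test of edgeR and adjusted by Benjamini-Hochberg over all genes tested. For Rbck1 it came to 0.70 ± 0.14 (SE) with all 6 libraries and missed the threshold of 0.05 (edgeR unadjusted p = 0.000847, adjusted p = 0.205). Without control replicate 1 it was 0.72 ± 0.14 (SE), or 1.65-fold, with an adjusted p of 0.00939 in edgeR. In that fit, leaving out A20 replicate 1, 2 or 3 as well gave adjusted p values of 0.0514, 0.0505 and 0.0631, with log2 fold changes of 0.74, 0.72 and 0.70.

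The other LUBAC subunits did not pass the test in either fit. Rnf31 encodes HOIP, the subunit that forms the linear chain. It stood at 32.3, 30.0 and 44.1 CPM in the controls and at 45.2, 40.1 and 41.1 CPM with A20. The groups overlapped because of control replicate 3, and the log2 fold change was 0.27 ± 0.19 (SE) with all 6 libraries and 0.16 ± 0.17 (SE) without control replicate 1 (edgeR adjusted p = 0.662 and 0.637). Rnf31 shares 123 exonic bases, 2.15% of its own, with Irf9, an interferon-response factor gene on the same strand, which ran from 5.79 to 20.7 CPM. Sharpin, which encodes the accessory subunit that stabilises the complex, stood at 34.8, 28.8 and 31.4 CPM in the controls and at 33.9, 36.9 and 30.3 CPM with A20. Its groups overlapped, and the change on the log2 scale was 0.12 ± 0.16 (SE) and 0.13 ± 0.17 (SE) in the 2 fits (edgeR adjusted p = 0.838 and 0.703).

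**Figure D1:**
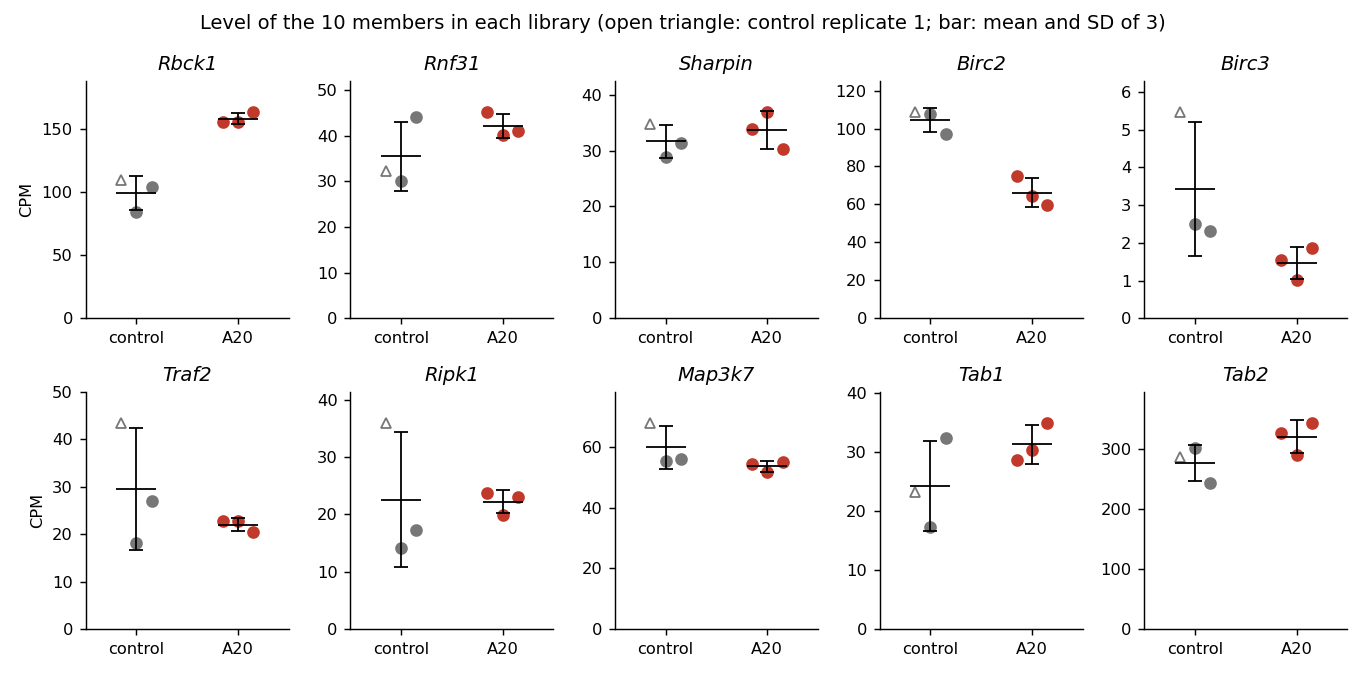
CPM of each of the 10 members in every library, with the axis of each panel starting at 0. Grey points are controls, red points A20-overexpressing libraries, the open triangle is control replicate 1, and the bar and whiskers are the mean and SD of 3 libraries. Rbck1 lies higher and Birc2 and Birc3 lower in all A20 libraries, and control replicate 1 is the highest library for Birc2, Birc3, Traf2, Ripk1 and Map3k7.

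Birc2 encodes cIAP1, the more abundant of the cIAP transcripts here. It lies on GRCm38 chromosome 9 from 7818227 to 7837064 on the minus strand (ENSMUSG00000057367). Its level was 108.7, 107.8 and 97.2 CPM in the controls and 74.9, 64.3 and 59.5 CPM with A20. Every A20 library was below every control, and control replicate 1 was 1.06 times the mean of the other controls. Controls averaged 105 CPM ± 6.37 (SD, n = 3) and A20 libraries 66.3 CPM ± 7.85 (SD, n = 3). The log2 fold change was -0.63 ± 0.16 (SE) with all 6 libraries (edgeR unadjusted p = 0.00323, adjusted p = 0.274) and -0.67 ± 0.15 (SE), or 1.59-fold lower, without control replicate 1 (edgeR adjusted p = 0.0168). In the fit without control replicate 1, leaving out A20 replicate 1, 2 or 3 or control replicate 2 as well gave adjusted p values of 0.0517, 0.0872, 0.13 and 0.051, all with lower values under A20.

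Birc3 encodes cIAP2, whose gene in other settings is induced by NF-kB. It lies 11.6 kb from Birc2, from 7848699 to 7873186 on the same strand of chromosome 9 (ENSMUSG00000032000), and the count table lists 0 genes between the pair. Birc3 stood at 5.47, 2.51 and 2.31 CPM in the controls and at 1.54, 1.02 and 1.85 CPM with A20, from 16 to 84 counts per library. The groups did not overlap, but control replicate 1 was 2.27 times the mean of the other controls. The log2 fold change was -1.17 ± 0.47 (SE) with all 6 libraries and -0.75 ± 0.47 (SE) without control replicate 1, and it did not pass in either (edgeR unadjusted p = 0.0368 and 0.126, adjusted p = 0.484 and 0.369). Both neighbours were thus lower in all A20 libraries than in all controls, and the test was passed by Birc2 alone, in 1 of the 2 fits. Their ratio in each library is given below, with a test that could not decide whether the size of the change differed between them.

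Traf2 encodes the adaptor that carries the cIAPs to the receptor. It stood at 43.5, 18.1 and 26.9 CPM in the controls and at 22.8, 22.8 and 20.5 CPM with A20. Control replicate 1 was 1.93 times the mean of the other controls, and the A20 libraries lay between control replicates 2 and 3. The log2 fold change was -0.37 ± 0.26 (SE) with all 6 libraries and -0.06 ± 0.19 (SE) without control replicate 1 (edgeR adjusted p = 0.67 and 0.90).

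Ripk1 encodes the kinase whose ubiquitination steers the complex toward survival or death. It stood at 36.0, 14.2 and 17.3 CPM in the controls and at 23.7, 19.9 and 23.1 CPM with A20. The highest and the lowest libraries were both controls, and control replicate 1 was 2.28 times the mean of the other controls. Without it the A20 libraries lay above both remaining controls. The log2 fold change accordingly went from 0.04 ± 0.30 (SE) with all 6 libraries to 0.46 ± 0.19 (SE) without control replicate 1, and neither passed edgeR's test (adjusted p = 0.974 and 0.173). With library size alone as the scaling, the former was -0.03. Ripk1 shares 241 exonic bases, 2.89% of its own, with Serpinb6a, a serpin gene on the opposite strand that stood at 299.9 CPM in control replicate 1 and at 116 to 178 CPM in the others. The sources used here do not say whether the counting used strand, and the part of reads from that stretch in the Ripk1 values was not tested.

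In the TAK1 complex no member passed the test in either fit. Map3k7, the gene of the kinase TAK1, stood at 68.1, 55.6 and 56.1 CPM in the controls and at 54.4, 51.7 and 55.2 CPM with A20. The A20 libraries were all lower, the nearest libraries of the groups being 55.6 and 55.2 CPM, and the log2 fold change was -0.13 ± 0.14 (SE) and -0.09 ± 0.14 (SE) in the 2 fits (edgeR adjusted p = 0.792 and 0.77). Tab1, which encodes an activating partner of TAK1, stood at 23.3, 17.3 and 32.4 CPM in the controls and at 28.7, 30.3 and 35.0 CPM with A20. Its controls differed by more than the groups did, and the log2 fold change was 0.40 ± 0.24 (SE) and 0.31 ± 0.21 (SE) (edgeR adjusted p = 0.607 and 0.416). In the fit without control replicate 1, leaving out control replicate 3 as well gave Tab1 a log2 fold change of 0.78 (edgeR adjusted p = 0.0114), and leaving out control replicate 2 gave -0.03 (adjusted p = 0.955). Tab2, which encodes the partner that binds ubiquitin chains, stood at 287, 302 and 244 CPM in the controls and at 327, 291 and 345 CPM with A20. These groups overlapped as well, and the change on the log2 scale was 0.23 ± 0.17 (SE) and 0.19 ± 0.15 (SE) (edgeR adjusted p = 0.675 and 0.497).

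With all 6 libraries, edgeR called 0 of the 10 members, 3 had an unadjusted p under 0.05 (Rbck1, Birc2 and Birc3), against 1341 of 13350 genes tested (10%), DESeq2 called 1 (Rbck1, adjusted p = 0.00342), and limma-voom and limma on log2 FPKM called 0. Over all 13350 genes tested, edgeR called 0.015% and DESeq2 called 1.03% of its 15662. Limma-voom and limma on log2 FPKM called 0 of the 13350. Without control replicate 1, edgeR called 2 of the 10, 1 higher and 1 lower, against 4.6% of 13658 genes. The share of all genes called higher was 1.92% and lower 2.68%. In these 5 libraries 3 members had an unadjusted p under 0.05 in edgeR (Rbck1, Birc2 and Ripk1), against 21.6% of all genes. DESeq2 also called Rbck1 and Birc2, against 5.66% of the genes it tested, and limma-trend on log2(FPKM + 1) called Rbck1, against 1.72%. Leaving out A20 replicate 1, 2 or 3 as well left 0 members called by edgeR, against 1.06%, 1.42% and 1.2% of all genes. Leaving out control replicate 2 left 1 (Rbck1), against 3.51% of all genes. Leaving out control replicate 3 gave 3 (Rbck1, Birc2 and Tab1), in a fit that called 16.9% of all genes. Groups did not overlap for 4 of the 10 members with all 6 libraries, Rbck1 higher and Birc2, Birc3 and Map3k7 lower, against 16.9% of all genes (7.62% higher, 9.27% lower). Without control replicate 1 this held for 5 of the 10, with Ripk1 added, against 37.9% of all genes (20.7% higher, 17.2% lower). The median log2 fold change of the 10 was 0.08 and 0.14 in the 2 fits, beside -0.03 and -0.0028 over all genes tested, with members on both sides of 0. In CPM, control replicate 1 lay above the other 5 libraries for 5 members, within them for 5 and below them for 0. Over all genes it lay above for 40.7%, within for 37.6% and below for 21.7%. CPM leaves out the TMM scaling factors of the fits, 1.11 for this library and 0.937 to 0.998 for the others. These positions depend on the scaling. In FPKM, which carries the authors' own scaling, Birc2 was at 21.3 in control replicate 1, under 25.1 in control replicate 2. Rnf31 was at 5.06 in control replicate 1, under all the others (5.60 to 7.85). Birc3, Traf2, Ripk1 and Map3k7 stayed above the others in FPKM, and Rbck1, Sharpin, Tab1 and Tab2 stayed within.

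**Figure D2:**
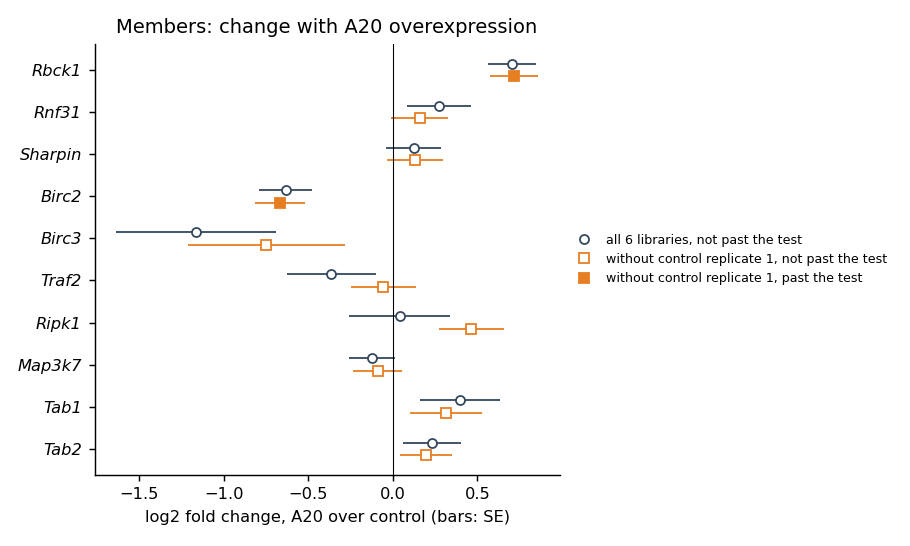
Log2 fold change of A20 over control for each member, with SE bars, from the fit of all 6 libraries (circles) and the fit without control replicate 1 (squares). Filled symbols passed edgeR's test at an adjusted p of 0.05. Rbck1 and Birc2 are filled in the fit without control replicate 1, and between the fits Ripk1 moves from 0.04 to 0.46 and Birc3 from -1.17 to -0.75.

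Levels were ordered by FPKM, the deposited count per gene length and scaled library size. Tab2 was highest, with a median of 50.6 FPKM over the 6 libraries and a range of 39.5 to 56.0 that lay above every other member. Rbck1 (median 28.0 FPKM, range 19.6 to 35.5) and Birc2 (18.7 FPKM, 13.0 to 25.1) followed and overlapped each other. In the controls the mean level was 21.2 FPKM ± 1.43 (SD, n = 3) for Rbck1 and 22.5 FPKM ± 2.28 (SD, n = 3) for Birc2, a difference within their spread. With A20 it was 34.6 FPKM ± 0.926 (SD, n = 3) and 14.5 FPKM ± 1.66 (SD, n = 3), so that Rbck1 lay well above Birc2. Tab1 (median 8.88 FPKM), Map3k7 (8.63 FPKM) and Sharpin (8.18 FPKM) overlapped from neighbour to neighbour, and all Sharpin values lay above all of Rnf31 (7.16 FPKM). Rnf31 overlapped Traf2 (4.51 FPKM), and Traf2 overlapped Ripk1 (2.60 FPKM). Birc3 was lowest at 0.414 FPKM (range 0.209 to 0.980), below every other member in all libraries. Within LUBAC, HOIL-1 transcripts were thus the most abundant per length, and those of HOIP the least. The length here is all annotated exonic bases of a gene, 5734 for Rnf31 and 3815 for Sharpin. It need not be that of the expressed transcript, and in CPM Rnf31 and Sharpin overlapped.

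**Figure D3:**
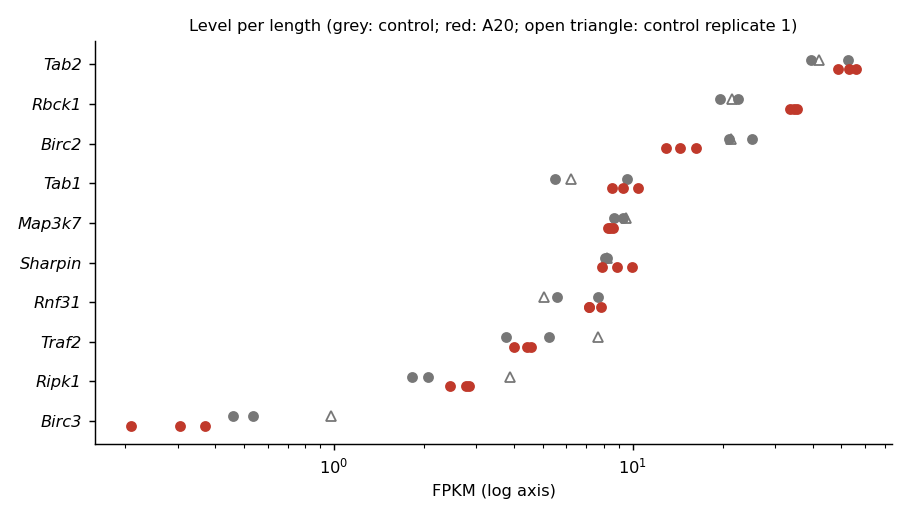
FPKM of each member in each library on a log axis, ordered by the median over the 6 libraries, with controls in grey, A20 in red and control replicate 1 as an open triangle. Tab2 lies above and Birc3 below all other members, and Rbck1 and Birc2 overlap in the controls and are separate with A20.

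Ratios between members within a library need no scaling between libraries, and 7 were compared by an exact two-sided permutation test, adjusted over the 7. With 3 libraries against 3 the smallest p this test can give is 0.1, and with 2 against 3 it is 0.2, so no ratio could pass. Per kilobase, Rbck1 stood at 2.62, 2.43 and 2.74 times Sharpin in the controls and at 3.80, 3.50 and 4.49 times with A20. The groups were separate and the log2 difference was 0.59 (exact p = 0.1, adjusted p = 0.175). Rbck1 to Rnf31 was 4.25, 3.50 and 2.94 in the controls and 4.29, 4.85 and 4.96 with A20, a log2 difference of 0.41 with the nearest libraries at 4.25 and 4.29 (exact p = 0.1, adjusted p = 0.175). Sharpin to Rnf31 overlapped, at 1.07 to 1.62 in the controls and 1.11 to 1.38 with A20 (exact p = 0.5), and the log2 difference was -0.18 with all 6 libraries and -0.05 without control replicate 1 (exact p = 1).

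Birc2 stood at 21.7, 47.0 and 46.0 times Birc3 in the controls and at 53.3, 68.8 and 35.1 times with A20. These ranges overlapped, and the log2 difference was 0.49 with all 6 libraries (exact p = 0.4, adjusted p = 0.56) and 0.12 without control replicate 1 (exact p = 0.8). The test could not pass with so few libraries, so whether the neighbouring genes changed by different amounts is not decided here. Ripk1 to Traf2 was 0.506, 0.482 and 0.393 in the controls and 0.637, 0.533 and 0.688 with A20. Although both genes were highest in control replicate 1, their ratio there lay with the other controls, and all A20 libraries were higher, by 0.43 on the log2 scale (exact p = 0.1, adjusted p = 0.175). Map3k7 to Tab2 was 0.226, 0.176 and 0.220 in the controls and 0.159, 0.170 and 0.153 with A20, lower by a log2 difference of -0.36 (exact p = 0.1, adjusted p = 0.175). Tab1 to Tab2 overlapped, at 0.105 to 0.242 and 0.160 to 0.190, with a log2 difference of 0.20 (exact p = 0.7) and, without control replicate 1, 0.16 (exact p = 0.8). Without control replicate 1 the same 4 ratios were separate between groups (exact p = 0.2, adjusted p = 0.35 for each). Their log2 differences were 0.55 for Rbck1 to Rnf31, 0.60 for Rbck1 to Sharpin, -0.29 for Map3k7 to Tab2 and 0.50 for Ripk1 to Traf2. The ratios to Rnf31 and to Sharpin share Rbck1, so they are not independent. How often ratios of other gene pairs were separate was not computed. By CPM, groups were separate for 16.9% of single genes with all 6 libraries and 37.9% without control replicate 1.

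**Figure D4:**
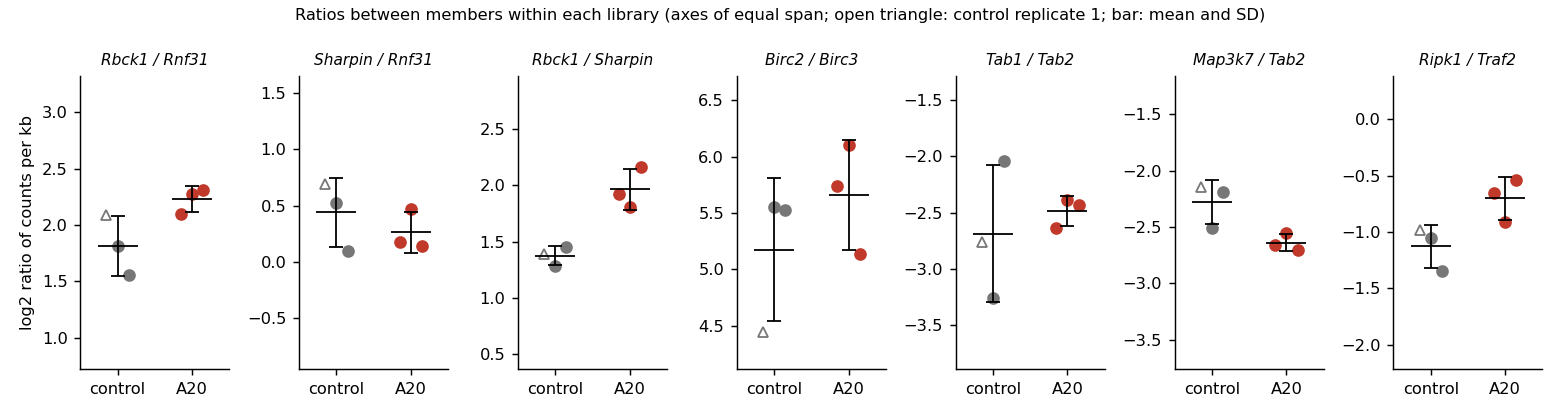
Log2 ratio of counts per kilobase between pairs of members in each library, on axes of equal span, with the mean and SD of 3 libraries per group and control replicate 1 as an open triangle. The groups are separate for Rbck1 to Rnf31, Rbck1 to Sharpin, Map3k7 to Tab2 and Ripk1 to Traf2, and overlap for the other ratios. The share of other gene pairs with separate groups was not computed.

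Beyond the members, 47 genes of the same pathway were listed: ligands and receptors, adaptors, kinases, deubiquitinases and ubiquitin-binding regulators, E2 enzymes, cell death effectors, and NF-kB subunits and inhibitors. Of these, 43 passed the filter on low counts. With all 6 libraries edgeR called 0 of the 43, against 0.015% of all genes, and DESeq2 called 0, against 1.03%. Limma-voom called 0 of the 43 and 0 over all genes. In edgeR 3 of the 43 had an unadjusted p under 0.05, against 10% of all genes. Without control replicate 1 edgeR called 1 higher and 0 lower, with 42 not past, against 4.6% of all genes called (1.92% higher, 2.68% lower). The gene called was Tnfaip3, the targeted gene itself, at 1.51 ± 0.19 (SE) on the log2 scale (edgeR adjusted p = 0.000256). With all 6 libraries it was at 1.08 ± 0.30 (SE, edgeR adjusted p = 0.331). In the 5-library fit, leaving out control replicate 3 as well gave 6 called (Tnfaip3, Tradd, Traf6, Chuk, Cyld and Ube2d3), where 16.9% of all genes were called, and leaving out control replicate 2 gave 2 (Tnfaip3 and Relb), where 3.51% were. Groups did not overlap for 6 of the 43 with all 6 libraries, 2 higher and 4 lower, against 16.9% of all genes. Without control replicate 1 8 of the 43 were higher and 7 lower without overlap, against 37.9% of all genes, and 7 had an unadjusted p under 0.05 in edgeR, against 21.6%. The median log2 fold change was -0.04 and -0.06 in the 2 fits.

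The ligand gene Tnf had no count in any library, and Lta, a related ligand, stayed at or under 0.355 CPM. Their receptor gene Tnfrsf1a, which encodes TNFR1, was abundant at 103.7, 93.3 and 110.3 CPM in the controls and at 117, 122 and 126 CPM with A20. All A20 libraries were higher, but the log2 fold change of 0.27 ± 0.14 (SE) and, without control replicate 1, 0.22 ± 0.14 (SE) did not pass (edgeR adjusted p = 0.55 and 0.364). The genes of highest mean CPM in the other groups, which need not be the highest per length, did not pass either, with log2 fold changes in the 2 fits of 0.03 (-0.0068 with library size alone) and -0.06 for the adaptor gene Traf3, -0.06 and -0.16 for Chuk, which encodes IKK-alpha, and 0.06 and -0.06 for Tax1bp1, an A20-binding adaptor. For the E2 enzyme gene Ube2d3 the values were -0.27 and -0.21, for Xiap, a caspase-inhibiting relative of the cIAPs, -0.11 and -0.15, and for the NF-kB precursor gene Nfkb2 0.09 and -0.13.

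A few genes outside the naming rule were picked after their values were seen. Nfkbia, the NF-kB inhibitor gene that NF-kB itself induces, stood at 21.3, 12.7 and 14.5 CPM in the controls and at 11.0, 10.3 and 8.74 CPM with A20. Its groups did not overlap, and it did not pass edgeR's test (log2 fold change -0.64 ± 0.25 and -0.47 ± 0.23 (SE), adjusted p = 0.462 and 0.238). The rest of the 6 listed NF-kB subunit and inhibitor genes lay on both sides of 0, and none passed. In the 2 fits Rela was at 0.18 and 0.12, Nfkb1 at 0.13 and 0.12, and Nfkb2 at 0.09 and -0.13. Nfkbie was at -0.04 and -0.06, and Relb at -0.62 and -0.61. NF-kB activity was not tested. Traf6, an adaptor of Toll-like and interleukin-1 receptors, was at 7.11 and 13.3 CPM in control replicates 2 and 3 and at 20.6, 15.3 and 20.3 CPM with A20, but at 30.6 CPM in control replicate 1. Its log2 fold change was 0.21 ± 0.42 (SE) with all 6 libraries and 0.85 ± 0.25 (SE) without that library (edgeR adjusted p = 0.896 and 0.0598). Optn, which encodes optineurin, a reader of linear ubiquitin, was at 14.7 CPM in control replicate 1 and had no count in the other 5 libraries. It did not pass the filter of the main edgeR fits and was not tested in them.

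**Figure D5:**
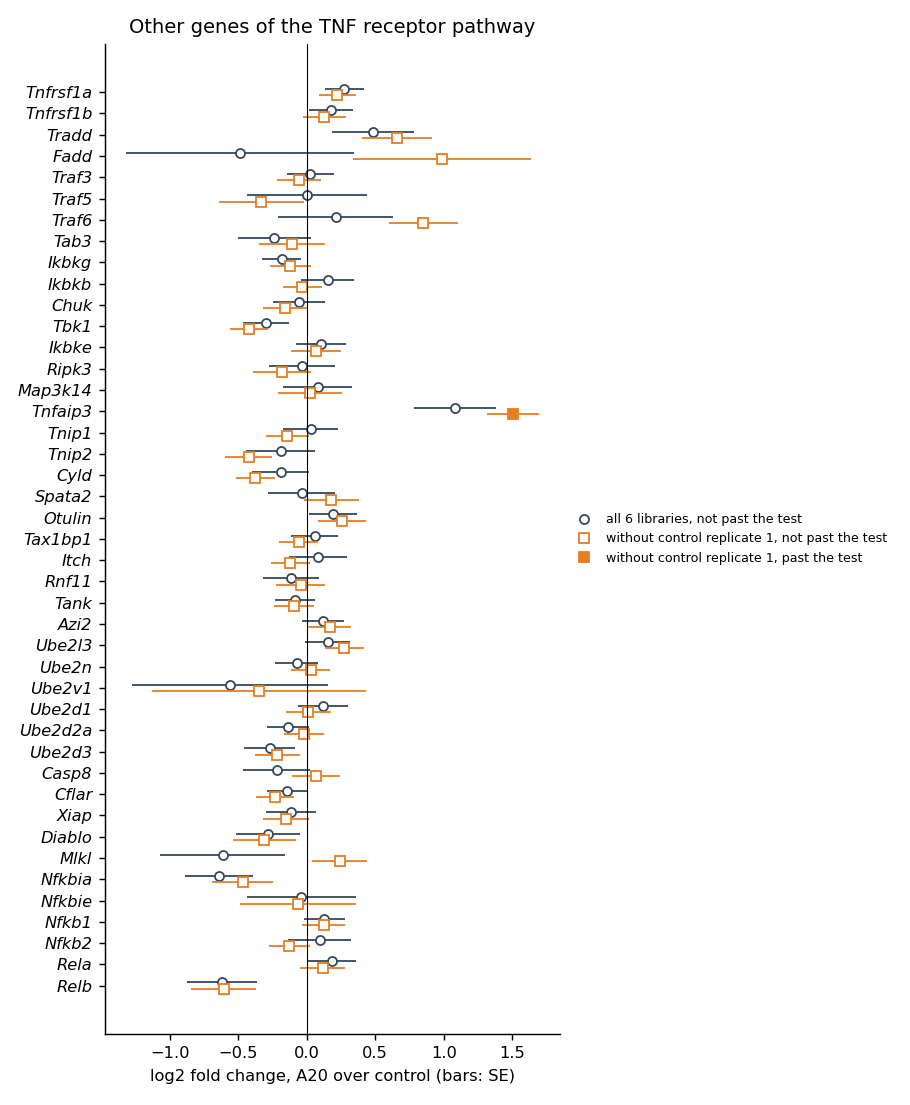
Log2 fold change of A20 over control, with SE bars, for the 43 other pathway genes that passed the filter, from the fit of all 6 libraries (circles) and the fit without control replicate 1 (squares). The 1 filled symbol is Tnfaip3 without control replicate 1, at 1.51, and the values of Fadd, Traf6 and Mlkl differ most between the fits.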

How the data were processed

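RNA counts of 3 control and 3 A20-overexpressing libraries of TM3 cells were used. An RNeasy kit and a SMARTER mRNA library kit were used, per the labels' protocols. The deposited count table holds raw whole-number counts per gene. Per the submitters' processing notes the build was GRCm38 (mm10). How reads were aligned, counted and assigned to strands is not given in the sources used here. The deposited FPKM values equal the count over gene length and a library size scaled by the authors, and served for levels and in alternatives. The members' coordinates were the same in GENCODE M21. The members, the gene lists and the 5-library fit were chosen with earlier results of these data known.

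Counts were fitted over the whole table with edgeR 4.0.16 (R 4.3.3; quasi-likelihood F test, TMM factors, filterByExpr, robust estimation, group as the only term, adjusted p under 0.05), with and without control replicate 1. SE is the log2 fold change over the square root of F. Alternatives were RLE factors, library size alone, no filter, DESeq2 1.42.0, limma-voom and limma-trend (limma 3.58.1) on log2 FPKM with a pseudocount of 1 or 0.1, a replicate block, and leaving out each library. Ratios were tested in SciPy 1.17.1. All 10 members were named, and of the pathway list Tnfaip3, any gene past the threshold and the gene of highest mean CPM in each group.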

Additional observations from a re-analysis of the deposited data

How the results depend on the processing

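Groups did not overlap in CPM for Rbck1 and Birc2, so leaving out a library could hardly turn their signs. Leaving control replicate 1 out of the 6 libraries is the main 5-library fit itself. Rbck1 was higher and Birc2 lower with A20 under all 14 alternatives to the 6-library fit (log2 fold change 0.65 to 0.75 and -0.74 to -0.55) and all 13 to the 5-library fit (0.62 to 0.83 and -0.78 to -0.54). Their adjusted p ran from 0.00342 to 0.969 and from 0.0168 to 0.99 in the former, and from 8.19e-05 to 0.0631 and from 0.00106 to 0.13 in the latter. The number of members called moved with all 6 libraries to 1 with DESeq2. Over the fits that leave out 1 library it was 2 without control replicate 1, where 628 of 13658 genes were called. It was 0 without any other library, in fits that called 0 genes over the whole table. With the 5 libraries it moved from 2 to 1 with limma-trend on log2(FPKM + 1) and to 1 on log2(FPKM + 0.1), where Birc2 was not called, and leaving out a library gave 0 (any A20 library) to 3 (control replicate 3). Pathway genes called were 0 to 1 on leaving out a library of the 6 and 1 to 6 of the 5 (6 without control replicate 3), and in the 5-library fit 3 without a filter (Tradd and Traf6 added), 2 with DESeq2 and 3 with the replicate block. Where 1 control remains, its spread is taken to be that of the A20 libraries. Over all genes, calls with 6 libraries went from 2 to 0 with library size alone, 23 without a filter and 162 with DESeq2, and with 5 libraries from 628 to 1173 without a filter, 235 and 177 with limma-trend, and 142 to 2423 on leaving out a library. The cause was not tested.

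Deviations from the group means correlated at 0.03, 0.11 and -0.04 for equal replicate numbers 1, 2 and 3, and at -0.19 to 0.16 for unlike numbers. Equal numbers thus showed no closer tie. Deviations within a group of 3 sum to 0 and control replicate 1 stood apart, so this check cannot exclude pairing. The fit with the replicate block called 0 members with all 6 libraries and 2 without control replicate 1, and no member's call changed; all genes called went from 2 to 2 and from 628 to 797.

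Against the main fits, signs turned only for values that were not past the threshold in those fits. With library size alone and 6 libraries, Ripk1 went to -0.032 and Traf3 to -0.0068. On leaving out a library of the 6, ranges that crossed 0 were Ripk1 -0.16 to 0.46, Traf3 -0.062 to 0.18, Chuk -0.16 to 0.16, Tax1bp1 -0.059 to 0.21, Xiap -0.23 to 0.054, Nfkb2 -0.13 to 0.32 and the log2 ratio difference of Tab1 to Tab2 -0.086 to 0.52. On leaving out a library of the 5 they were Rnf31 -0.052 to 0.41, Traf2 -0.28 to 0.21, Tab1 -0.035 to 0.78, Traf3 -0.23 to 0.14, Chuk -0.41 to 0.14, Tax1bp1 -0.20 to 0.10, Ube2d3 -0.46 to 0.085, Xiap -0.39 to 0.14 and Nfkb2 -0.26 to 0.029, and among ratios Sharpin to Rnf31 -0.26 to 0.16, Birc2 to Birc3 -0.10 to 0.38 and Tab1 to Tab2 -0.44 to 0.77. Depth limits Birc3, with as few as 16 counts in a library.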
